A study of Mus musculus with 4 samples.

Results

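The genes described here build and run the mitotic machinery: the cyclins and kinases that start mitosis, the kinesin motors of the spindle, the kinetochore that ties chromosomes to it, the checkpoint that guards that attachment, the condensins that compact chromosomes, and the factors that end the division. They were chosen by name as 48 genes, of which 47 had a value among the 19938 genes measured. Ccnb1, a mitotic cyclin, was the exception: no probe set was annotated with its symbol alone. Total RNA was taken from CD4+ cells of the spleen of C57BL/6 mice and hybridised to 4 Affymetrix arrays. Of these, 2 held CD4+ splenocytes of wild type mice, and 2 held CD4+ lymphoma cells from spleens of C57BL/6 mice with both Tet2 alleles carrying a gene trap, an insertion that interrupts the transcript of this DNA dioxygenase. Ages and numbers of animals are not given in the labels, so p-values measure the spread between these arrays, which may be partly technical. Every lymphoma sample also carries the trap, so what Tet2 loss and what the tumour contributes cannot be told apart.

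A cell enters mitosis when cyclin-dependent kinase and its cyclins become active. Chromosomes are then compacted, kinetochores capture spindle microtubules, and the checkpoint holds back the anaphase-promoting complex until every chromosome is attached. Most of the genes for these proteins are transcribed mainly late in the cell cycle, under repression by the DREAM complex in resting cells and activation by B-Myb and FoxM1 in dividing ones. Most peripheral T cells rest, and these genes are known to be induced when antigen makes them divide.

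Tet2 had deposited intensities of 980 and 1016 in wild type and of 596 and 399 in lymphoma. Its log2 difference of -1.03 (SE 0.24) did not pass (adjusted p = 0.077, limma with Benjamini-Hochberg adjustment). The sources used here do not say where the trap lies relative to these probes. The labelled cell type was visible in Cd4, at 4552 and 5153 in wild type and at 5839 and 7134 in lymphoma. Cd28, another CD4 T cell marker, had 2494 and 2762 in wild type and 2825 and 2315 in lymphoma, a log2 difference of -0.04. Markers of other cell types also differed between the groups. Over all genes 2.46% fell at an adjusted p under 0.05 (limma). All 6 measured B cell markers fell, with a summed intensity of 15213 and 9924 in wild type and 1999 and 834 in lymphoma. Of 6 macrophage and monocyte markers 4 fell, with sums between 6261 and 6631 in wild type and between 1458 and 2718 in lymphoma, and of 6 dendritic cell markers 5 fell. Of 4 germinal centre B cell markers 1 fell, as did 1 of 5 plasma cell markers. None of the 2 CD8 T cell, 4 erythroid, 5 granulocyte and 4 natural killer markers measured was called by limma. At an unadjusted p under 0.05 both CD8 markers were lower and no erythroid marker passed. Of the granulocyte markers 2 were higher, and of the natural killer markers 1 was higher and 1 lower. Over all genes 8.73% were higher and 1379 of 19938 were lower at that threshold. The 3 Cd3 genes differed by 0.37 to 0.63 on the log2 scale. None of the 5 CD4 T cell markers measured was called, and 4 were higher at an unadjusted p under 0.05 in limma. In bulk RNA, fewer cells of a type and less RNA per cell cannot be told apart. Beside every result that follows, the part of these marker differences was not tested.

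Mitotic genes had higher values in lymphoma, and Smc4 alone had overlapping groups. All 47 log2 differences were positive, with a median of 1.15 and a range from 0.03 to 1.66, while the median over all genes tested was -0.04. For the other 46 the lower lymphoma value exceeded the higher wild type value, as it did for 20.6% of all genes. A difference of at least 1 log2 unit, which is a doubling, was reached by 29 of the 47 and by 3.06% of all genes. With an adjusted p under 0.05 as the threshold (limma), 18 of the 47 rose, against 1.82% of all genes, and none fell, against 2.46%. At an unadjusted p under 0.05, 46 were higher, against 8.73% of all genes. Again none was lower, against 1379 of the 19938 genes. Of the 47, 44 exceeded the highest Cd3 difference of 0.63, as did 7.29% of all genes.

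The number that rose depended on the arrays that set the spread. With either wild type array left out it was 0, since the lymphoma pair then set the spread and no gene at all was called. At an unadjusted p under 0.05 in limma, 45 were still higher when wild type array 1 was omitted and 34 when array 2 of that group was. Leaving out lymphoma array 1 gave 25 and leaving out lymphoma array 2 gave 41, while over all genes the number that rose went from 362 to 889 and 1057. The median difference was 1.30 and 0.93 without the respective wild type arrays, and 0.93 and 1.32 without the respective lymphoma arrays. In each such fit the lone array is assumed to vary as the other group did. The calls named below hold with all 4 arrays. Of the 18, 13 were called in all 10 settings that used the 4 arrays.

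**Figure D1:**
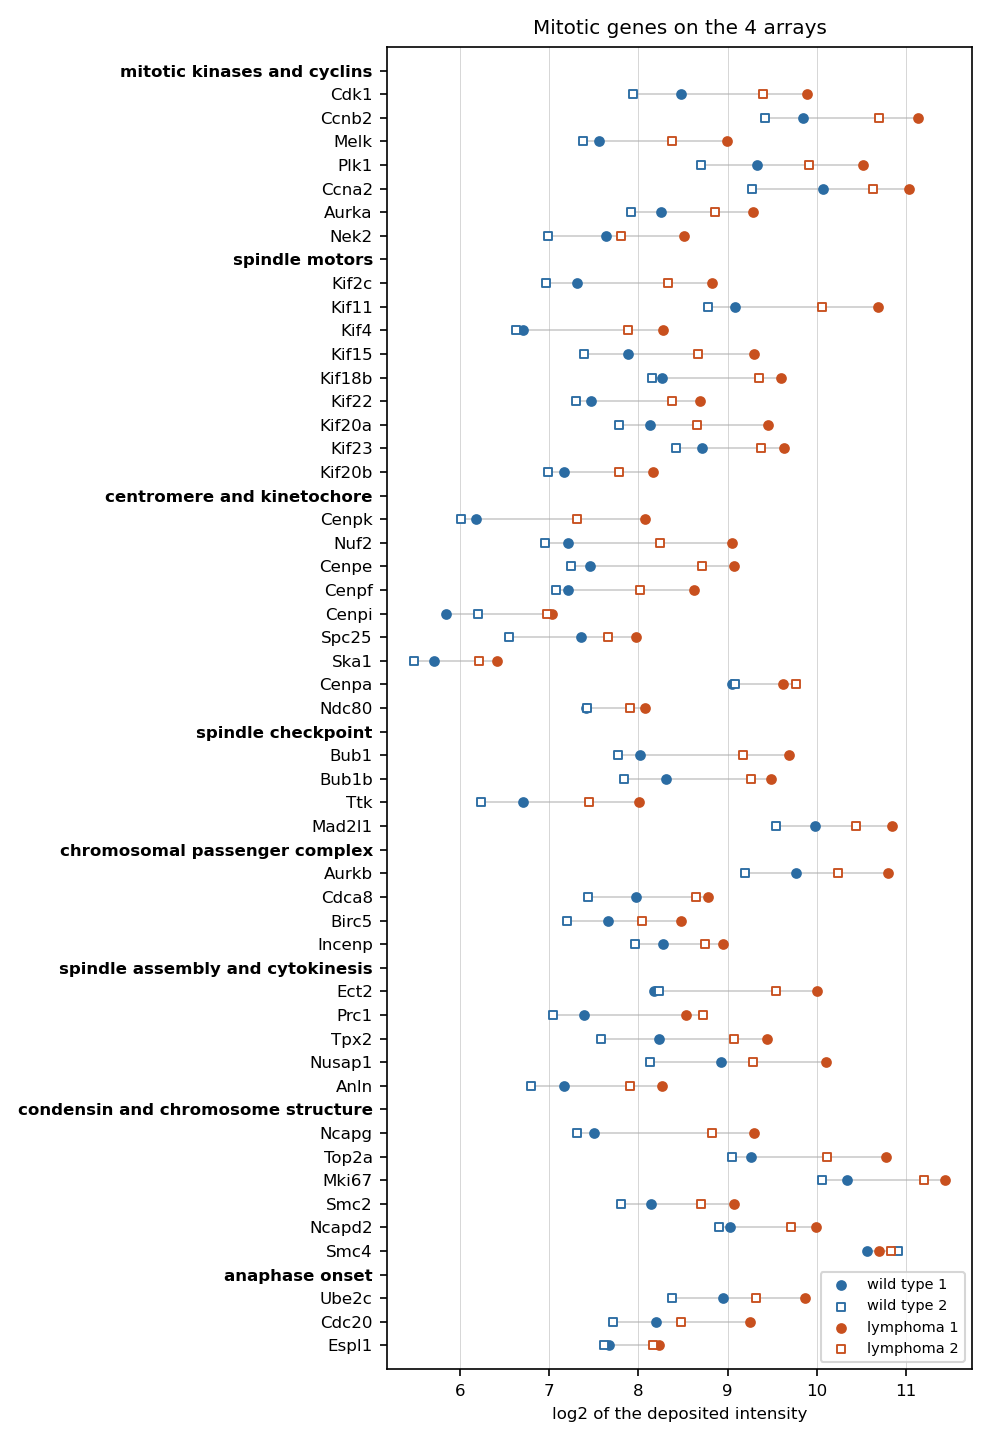
Deposited intensity of each measured mitotic gene on a log2 scale (x axis), with genes in rows by role. Blue marks are the 2 wild type arrays and orange marks the 2 lymphoma arrays (filled circle, array 1, and open square, array 2), and the grey line spans the 4 values. Orange marks lie to the right of both blue marks in every row except Smc4. Levels of different genes come from different probes and are not comparable.

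The arrays also differed within each group, and these genes moved together there. For wild type arrays 1 and 2 their median log2 level was 8.13 and 7.71, and for lymphoma arrays 1 and 2 it was 9.28 and 8.73. The lower lymphoma array thus stood above the higher wild type array. Of the 47, 42 were higher on wild type array 1 than on array 2, 44 were higher on lymphoma array 1 than on array 2, and 41 showed both, against 36.2% of all genes. The median gap was 0.31 within wild type and 0.41 within lymphoma, against 0.03 and 0.05 over all genes. The pattern was not particular to these genes. Array 1 was higher in both groups for 88.2% of mitotic entry regulators and 81.5% of further spindle and cytokinesis genes, lists described below. The same held for all 6 B cell markers, with median gaps of 0.61 and 1.07. Among non-mitotic kinesins the share was 30.0%, and among cohesin genes and regulators 28.6%. A shared gap of this kind means that the 47 genes are not 47 separate measurements of the difference between the groups. Prc1, Cenpa and Smc4 were the members that were higher on lymphoma array 2 than on array 1.

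**Figure D2:**
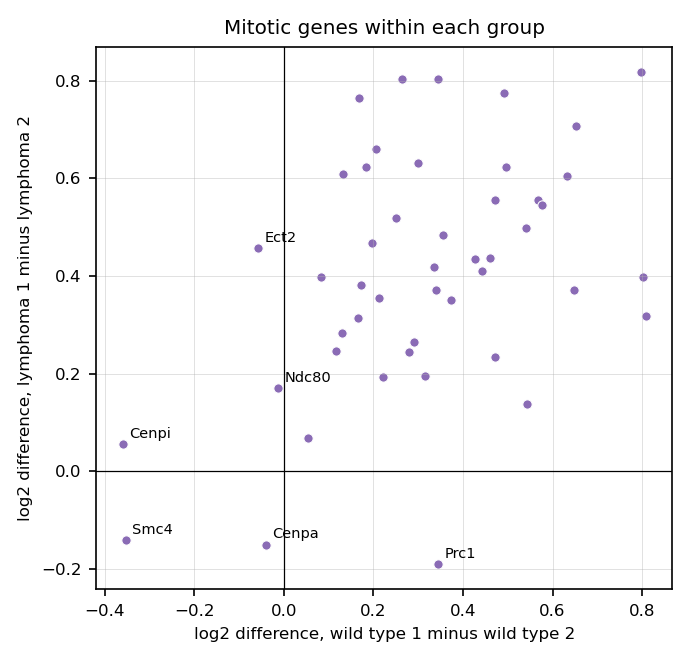
For each of the 47 mitotic genes, the log2 difference between the 2 wild type arrays (x axis) and between the 2 lymphoma arrays (y axis), 1 point per gene. Most points, 41, lie at the upper right, where both differences are positive, and the 6 genes outside it are named.

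Promoter sequences are shown because a pair of short elements is known from promoters of this class. These are the cell cycle genes homology region (CHR), through which DREAM and B-Myb act, and the CCAAT box, which binds NF-Y. A link between these elements and the values on these arrays was not tested. RefSeq promoter windows (GRCm38.p6, 250 bases before to 50 after the annotated start) were matched by symbol for 41 of the 48 genes. The CHR was searched as TTTGAA or TTCGAA and the CCAAT box as CCAAT, each on both strands. The motifs share no overlap in the sequences printed. A CHR match was present for 31 of the 41 (75.6%), against 19.0% of the 15614 genes of the array that had a window. A CHR match within 50 bases of the start was present for 28 (68.3%), against 781 of those 15614 genes. At least 1 CCAAT box was present for 31 (75.6%), against 41.7%, at least 2 for 21 (51.2%), against 14.3%, and both elements for 26 (63.4%), against 7.69%. Where a gene has several windows, a match in any of them counted. Over all measured members with a window, the share with a CHR match was similar by call. It was 14 of 18 for called genes and 17 of 22 for those not called. Role groups differed in this. Among centromere and kinetochore genes, the called Cenpe, Cenpi, Cenpk and Nuf2 had no match, while the uncalled Cenpa, Cenpf, Ndc80 and Spc25 had a match. In the other groups every called gene had a match, and the uncalled Nek2, Melk, Mad2l1, Birc5 and Nusap1 had none. These splits were not tested. Below are 4 promoters of genes that rose and carried both elements, with a CHR match within 50 bases of the start. Those of Nuf2 and Ndc80, partners in the same complex, follow. Nuf2 rose and Ndc80 was not called. Capitals mark CHR and CCAAT matches on either strand.

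Cdk1, chr10:69352863-69353162, minus strand: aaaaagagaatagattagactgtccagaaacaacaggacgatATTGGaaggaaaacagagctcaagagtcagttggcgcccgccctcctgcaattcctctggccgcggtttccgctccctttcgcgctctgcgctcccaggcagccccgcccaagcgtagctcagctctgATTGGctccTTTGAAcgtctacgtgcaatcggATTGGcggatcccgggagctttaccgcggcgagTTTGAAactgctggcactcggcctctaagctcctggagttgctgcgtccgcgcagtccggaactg
Ccnb2, chr9:70421505-70421804, minus strand: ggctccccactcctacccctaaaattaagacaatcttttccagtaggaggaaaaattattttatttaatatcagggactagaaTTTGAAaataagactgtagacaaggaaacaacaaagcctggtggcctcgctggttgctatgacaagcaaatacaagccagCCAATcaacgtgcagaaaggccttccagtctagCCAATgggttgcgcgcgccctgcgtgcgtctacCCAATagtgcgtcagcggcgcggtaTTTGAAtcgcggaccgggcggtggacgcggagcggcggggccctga
Bub1, chr2:127831810-127832109, minus strand: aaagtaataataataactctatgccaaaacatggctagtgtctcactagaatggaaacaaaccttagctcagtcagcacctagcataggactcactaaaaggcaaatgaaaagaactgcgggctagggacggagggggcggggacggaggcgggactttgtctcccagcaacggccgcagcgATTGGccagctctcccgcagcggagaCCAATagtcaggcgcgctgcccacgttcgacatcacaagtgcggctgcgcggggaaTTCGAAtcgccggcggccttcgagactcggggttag
Ncapg, chr5:45669675-45669974, plus strand: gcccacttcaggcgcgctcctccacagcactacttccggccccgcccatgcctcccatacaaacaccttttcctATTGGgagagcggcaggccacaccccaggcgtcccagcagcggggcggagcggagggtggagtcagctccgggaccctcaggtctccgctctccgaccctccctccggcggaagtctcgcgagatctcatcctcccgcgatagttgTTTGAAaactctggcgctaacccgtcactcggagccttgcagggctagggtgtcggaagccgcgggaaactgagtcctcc
Nuf2, chr1:169531415-169531714, minus strand: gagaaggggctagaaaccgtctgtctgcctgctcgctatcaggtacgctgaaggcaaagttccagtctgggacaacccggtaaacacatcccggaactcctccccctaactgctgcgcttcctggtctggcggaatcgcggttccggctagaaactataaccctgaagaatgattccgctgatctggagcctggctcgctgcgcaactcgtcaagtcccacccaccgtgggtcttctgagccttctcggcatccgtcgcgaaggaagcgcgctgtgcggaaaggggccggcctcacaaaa
Ndc80, chr17:71526808-71527107, minus strand: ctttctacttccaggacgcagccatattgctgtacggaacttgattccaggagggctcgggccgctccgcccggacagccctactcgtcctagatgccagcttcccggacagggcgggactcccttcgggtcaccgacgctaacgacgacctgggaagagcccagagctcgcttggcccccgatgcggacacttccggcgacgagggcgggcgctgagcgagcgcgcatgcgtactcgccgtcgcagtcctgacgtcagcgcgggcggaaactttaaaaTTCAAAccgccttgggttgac

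In Cdk1 the CHR matches began 71 and 15 bases before the start and the 3 CCAAT boxes 208, 80 and 48 bases before it. Ccnb2 had CCAAT boxes 87, 54 and 21 bases before the start and a CHR 4 bases after it, besides another CHR 167 bases before it. Bub1 had a CHR of the TTCGAA form 14 bases after the start, and boxes 68 and 42 bases before it. Ncapg had a CHR 30 bases before the start and its box 176 bases before it. The Nuf2 window held neither set of letters, and that of Ndc80 held a CHR in reverse orientation 29 bases after the start and no CCAAT. By role, all 8 spindle motors with a window had a CHR match, as did all 5 genes of the condensin and chromosome structure group and all 3 of anaphase onset. It was found for 3 of 4 checkpoint genes, 3 of 4 of spindle assembly and cytokinesis, 4 of 7 kinases and cyclins, 4 of 8 centromere and kinetochore genes and 1 of 2 passenger complex genes. Among the 16 non-mitotic kinesins with a window 3 had one, and among 17 genes of the anaphase-promoting complex list 4 had one. Over the genes of the array with a window the share was 19.0%. Other lists described below had larger shares: 10 of 21 further kinetochore genes, 6 of 9 further checkpoint genes, 3 of 5 further motors and 3 of 4 further condensin subunits. A match was also found for 11 of 20 further spindle and cytokinesis genes, 6 of 12 mitotic entry regulators and 4 of 9 cohesin genes and regulators. A match describes the letters in this window and does not show a bound factor.

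The kinases and cyclins that start and order mitosis were all higher in lymphoma. Of the 7 measured 2 rose, against 1.82% of all genes. Their log2 differences ran from 0.85 to 1.44 with a median of 1.21. Cdk1, the kinase that drives entry into mitosis, had intensities of 356 and 245 in wild type and 949 and 672 in lymphoma. It rose 2.71-fold (log2 difference 1.44, SE 0.27, adjusted p = 0.041, limma). Ccnb2, a B-type cyclin partner of Cdk1, stood at 921 and 685 in wild type and at 2250 and 1664 in lymphoma, and rose by 1.28 (SE 0.24, adjusted p = 0.040, limma). For both genes the gap between the groups was wider than the gap between the arrays of either group. Nek2, a centrosome kinase, differed least in this group: 199 and 126 in wild type against 365 and 224 in lymphoma, a log2 difference of 0.85 (SE 0.32, adjusted p = 0.27, limma). Its groups were apart by a narrow margin. The remaining members were the cyclin Ccna2 (1.16), the polo kinase Plk1 (1.21), the spindle pole kinase Aurka (0.99) and the kinase Melk (1.22), none of them called, with adjusted p from 0.055 for Melk to 0.11 for Ccna2.

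Spindle motors gave the largest number of calls of any role group, 5 of 9, against 1.82% of all genes. The share called was higher in spindle assembly and cytokinesis, with 3 of 5. All 9 kinesins had higher values on both lymphoma arrays, and the differences ran from 0.90 to 1.45 with a median of 1.26. Kif2c, which removes tubulin from microtubule ends at centromeres, went from 159 and 124 in wild type to 453 and 323 in lymphoma. It rose by 1.45 (SE 0.24, adjusted p = 0.028, limma). Kif11, the motor that pushes spindle poles apart, had 542 and 440 in wild type and 1652 and 1067 in lymphoma, and rose by 1.44 (SE 0.26, adjusted p = 0.036, limma). Both lymphoma values of Kif11 were well above either wild type value, and lymphoma array 1 was far above array 2. The chromosome arm motor Kif4 (1.42), Kif18b, which controls the length of astral microtubules (1.26), and the chromosome arm motor Kif22 (1.15) also rose. Kif20b, a motor of late mitosis, differed least, with 143 and 127 in wild type and 286 and 220 in lymphoma (0.90, SE 0.20, adjusted p = 0.075, limma). Kif15, a spindle motor that overlaps in function with Kif11 (1.34), and the cytokinesis motors Kif20a (1.10) and Kif23 (0.93) were not called. Of 20 kinesins without a main role in mitosis 1 rose, near the share of 1.82% over all genes: the transport kinesin Kif5c, at 0.91. Their median was 0.00, with 10 positive and 10 negative differences. Kif21b, a kinesin of lymphocytes, stood at -0.60 (adjusted p = 0.16), an example chosen after its value was seen.

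Centromere and kinetochore genes spanned a wider range, from 0.57 to 1.59, and 4 of 9 rose, against 1.82% of all genes. Cenpk, a subunit of the constitutive centromere network, had 72.5 and 64.6 in wild type and 269 and 158 in lymphoma, and rose 3.02-fold (log2 difference 1.59, SE 0.27, adjusted p = 0.031, limma). Nuf2, a microtubule-binding subunit of the NDC80 complex, went from 148 and 123 to 529 and 303. It rose by 1.57 (SE 0.29, adjusted p = 0.041, limma), and this call was lost with a pseudocount of 32 added to the intensities. For both, the lymphoma arrays differed from each other by more than the wild type arrays did. Cenpe, the kinetochore motor, rose by 1.54 and Cenpi, another centromere network subunit, by 0.98. The call on Cenpi was lost without the variance trend and relative to the Cd3 genes. Ndc80, the subunit that pairs with Nuf2, differed least: 170 and 172 in wild type and 269 and 239 in lymphoma, or 0.57 (SE 0.17, adjusted p = 0.17, limma). The wild type values of Ndc80 were nearly equal and both lymphoma values lay above them. Cenpf, a large outer kinetochore protein (1.18), the centromeric histone Cenpa (0.63), Spc25 of the NDC80 complex (0.87) and the microtubule coupler Ska1 (0.72) were not called.

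Nuf2 and Ndc80 can also be set against each other within each array. The log2 ratio of Nuf2 to Ndc80 was -0.20 and -0.48 in wild type, and 0.97 and 0.34 in lymphoma. Its mean went from -0.34 ± 0.20 (SD, n = 2) to 0.66 ± 0.45 (SD, n = 2). The groups did not overlap, and the difference was 1.00 (two-sided exact permutation p = 0.33, the smallest that 2 arrays against 2 allow). This pair, like the other 4 ratios computed, was chosen after its values were seen. All 5 had that same p, and adjustment over them leaves it as it is.

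Of the spindle checkpoint genes, which hold anaphase until kinetochores are attached, 2 of 4 rose, against 1.82% of all genes. Their median was 1.28. Bub1, the checkpoint kinase at kinetochores, had 259 and 218 in wild type and 828 and 577 in lymphoma and rose 2.91-fold (1.54, SE 0.24, adjusted p = 0.022, limma). Bub1b, which encodes the inhibitor BubR1 of the anaphase-promoting complex, went from 318 and 229 to 720 and 612 and rose by 1.30 (SE 0.23, adjusted p = 0.033, limma). Neither gene had a lymphoma value near the wild type values. Mad2l1, the checkpoint protein that binds Cdc20, differed least: 1011 and 745 against 1841 and 1386 (0.88, SE 0.24, adjusted p = 0.12, limma). Ttk, the kinase that starts checkpoint signalling, differed by 1.26 and was not called (adjusted p = 0.059).

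None of the 4 genes of the chromosomal passenger complex, which corrects faulty attachments and later directs cytokinesis, passed. Over all genes 1.82% were called higher, and at that share few calls or none would be met among 4 genes. Their differences lay close together, from 0.73 to 1.04, and the groups of all 4 were apart. At an unadjusted p under 0.05 in limma all 4 were higher, against 8.73% of all genes. The kinase subunit Aurkb had 871 and 588 in wild type and 1780 and 1211 in lymphoma (1.04, SE 0.28, adjusted p = 0.12, limma). For the subunit Cdca8, known as borealin, the values were 251 and 172 in wild type and 440 and 400 in lymphoma (1.01, SE 0.23, adjusted p = 0.077, limma). The scaffold Incenp had 310 and 249 against 493 and 431 (0.73, SE 0.20, adjusted p = 0.13, limma). On the log2 scale the wild type arrays differed from each other by more than the lymphoma arrays did for all 4. For Aurkb and Birc5 the margin was small. Birc5, known as survivin, differed by 0.83.

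Genes of spindle assembly and cytokinesis had a median of 1.35, and 3 of 5 rose, against 1.82% of all genes. Ect2, the exchange factor that activates RhoA at the division plane, had 289 and 301 in wild type and 1024 and 747 in lymphoma, and rose 2.96-fold (1.57, SE 0.22, adjusted p = 0.015, limma). Prc1, which bundles microtubules of the central spindle, went from 167 and 132 to 371 and 424 and rose by 1.42 (SE 0.20, adjusted p = 0.017, limma). Prc1 was higher on lymphoma array 2, unlike most of these genes. Anln, or anillin, a scaffold of the contractile ring, had 143 and 111 in wild type and 307 and 241 in lymphoma and rose by 1.11 (SE 0.22, adjusted p = 0.049, limma). It was the called member closest to the threshold, and the call was lost with the pseudocount, without the variance trend and relative to the Cd3 genes. Tpx2, the activator of Aurka (1.35, adjusted p = 0.052), and the spindle protein Nusap1 (1.17, adjusted p = 0.17) were not called.

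The condensin and chromosome structure group held both the largest and the smallest difference of all members. Ncapg, a subunit of condensin I, had 181 and 158 in wild type and 627 and 454 in lymphoma and rose 3.15-fold (1.66, SE 0.22, adjusted p = 0.014, limma). Smc4, the ATPase shared by both condensins, had 1510 and 1928 in wild type and 1662 and 1833 in lymphoma. Its values overlapped, with both lymphoma arrays between the wild type arrays. The difference of Smc4 was 0.03, with a 95% confidence interval from -0.43 to 0.50 (adjusted p = 0.97, limma), and its sign turned under quantile normalization (-0.05), relative to the Cd3 genes (-0.45), and when wild type array 1 (-0.14) or lymphoma array 2 (-0.04) was left out. The partner ATPase Smc2 differed by 0.92 and the condensin I subunit Ncapd2 by 0.89, neither called. Top2a, the topoisomerase that untangles sister chromatids, had 612 and 531 in wild type and 1757 and 1112 in lymphoma (1.29, SE 0.26, adjusted p = 0.0503, limma), just outside the threshold. Another Top2a probe set had intensities of only 7.59 to 19.3, below the first quartile of every array, and is not read. Mki67, which coats mitotic chromosomes and is the common marker of dividing cells, rose by 1.12 (adjusted p = 0.030, limma), a call lost relative to the Cd3 genes, as was that of Kif22.

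Within the arrays, the log2 ratio of Ncapg to Smc4 was -3.06 and -3.61 in wild type and -1.41 and -2.01 in lymphoma, with no overlap. Its difference was 1.62 (two-sided exact permutation p = 0.33, the smallest possible). For Smc2 over Smc4 the difference was 0.88, with -2.42 and -3.11 in wild type and -1.62 and -2.14 in lymphoma. The difference was 1.29 for Ncapg2 over Ncaph2 and 0.31 for Prc1 over Anln. These ratios come from different probe sets, so only their change between arrays can be read. Of the 4 other condensin subunits, from a list set by function, 2 rose, against 1.82% of all genes. Ncapg2 of condensin II rose by 1.40 (adjusted p = 0.024, limma) and Ncaph of condensin I by 1.25 (adjusted p = 0.024, limma). Ncapd3 and Ncaph2, both of condensin II, stood at 0.23 and 0.11 and were not called. Of cohesin, the ring that holds sister chromatids together, and its regulators 1 of 14 rose, while 1.82% of all genes did. The gene that rose was Cdca5, which encodes sororin, by 1.27. The list's median was 0.17, and its ATPases Smc1a and Smc3 stood at 0.32 and 0.31 and its kleisin Rad21 at 0.27.

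The genes of anaphase onset had a median of 0.91, close to the 0.92 of the passenger complex. None of the 3 passed, while 1.82% of all genes were called higher, a share at which few calls or none would be met. All 3 were higher at an unadjusted p under 0.05 in limma, against 8.73% of all genes. Their lymphoma values all lay above wild type, as did those of 20.6% of all genes. Ube2c, the ubiquitin-conjugating enzyme of the anaphase-promoting complex, had 495 and 332 in wild type and 934 and 640 in lymphoma (0.93, SE 0.28, adjusted p = 0.16, limma). Cdc20, the activator of that complex and the target of the checkpoint, had 294 and 209 against 612 and 357 (0.91, SE 0.31, adjusted p = 0.22, limma). Espl1, or separase, the protease that cuts cohesin, had 203 and 196 against 301 and 287 (0.56, SE 0.17, adjusted p = 0.17, limma). The difference of Cdc20 was 0.53 with lymphoma array 1 left out and 1.30 with array 2 of that group left out. The anaphase-promoting complex itself, with its inhibitors, had no call among 18 genes, while 1.82% of all genes were called higher. At that share few calls or none would be met in a list of this size. At an unadjusted p under 0.05 in limma, 3 were higher and 0 lower. Over all genes 8.73% were higher and 1379 of 19938 were lower. The median of the list was 0.24, and the largest differences were those of the inhibitor Fbxo5 (0.70) and the subunit Anapc4 (0.52).

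Between role groups, the medians lay between 0.91 for anaphase onset and 1.35 for spindle assembly and cytokinesis. The ranges of these groups did not overlap with each other, from 0.56 to 0.93 in the former and from 1.11 to 1.57 in the latter. Motors, kinetochore, checkpoint and condensin genes had overlapping ranges, and differences between role groups were not tested. The order of the medians depended on the arrays and settings: without lymphoma array 2 anaphase onset (1.20) stood above the passenger complex (1.06), and without wild type array 2 spindle assembly and cytokinesis (1.03) stood below the kinetochore genes (1.11). Relative to the mean of Cd3d, Cd3e and Cd3g on each array, a setting chosen after seeing the data, the median of the 47 was 0.67 and that of all genes -0.52. Then 46 differences were positive and 15 of the 47 rose, 14 of them among the 18, while over all genes 275 rose and 2589 fell.

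**Figure D3:**
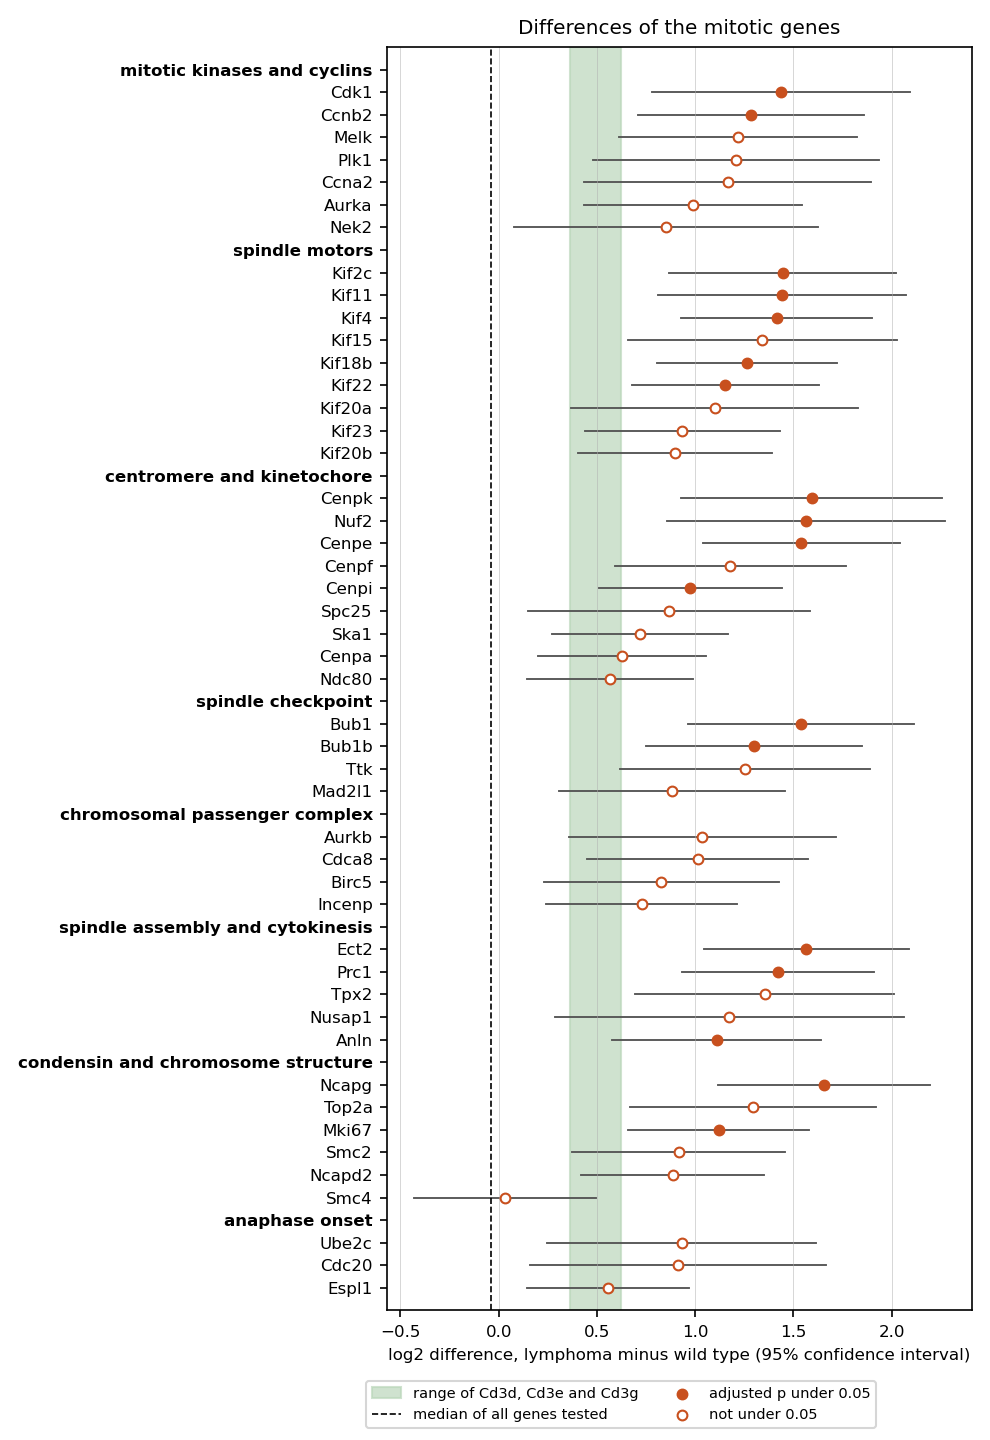
Log2 difference between lymphoma and wild type (x axis) for each of the 47 genes by role, with its 95% confidence interval from limma (horizontal line). Filled points have an adjusted p under 0.05, the green band spans the differences of Cd3d, Cd3e and Cd3g, and the dashed line is the median of all genes tested, -0.04. All intervals except that of Smc4 lie above 0.

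Other genes of the division machinery, listed by function, were also mostly higher. Over all genes 1.82% rose. Of 22 further kinetochore genes measured 2 rose, Cenph of the centromere network by 1.47 and the microtubule coupler Ska3 by 1.44, all 22 differences were positive, and the median was 0.64. Of 10 further checkpoint genes 5 rose, with Trip13, an ATPase that recycles Mad2, and Sgo2a, a shugoshin that protects centromeric cohesin, at 1.34 each and Kntc1 at 1.32. The other 5, among them Bub3 (0.40) and Mad1l1 (-0.07), were not called. Of 4 further mitotic motors Kif14 alone rose, by 1.20. Among 27 further spindle and cytokinesis genes 7 rose and none fell, led by the hyaluronan-binding spindle protein Hmmr (1.54), Depdc1a (1.49) and the spindle protein Spag5 (1.42), and the median was 0.78. Haus8, a subunit of the augmin complex, had the lowest value of that list, -0.43 (adjusted p = 0.31, limma).

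Of 17 mitotic entry regulators 3 rose, against 1.82% of all genes. Mastl, the kinase that inhibits the phosphatase opposing Cdk1, rose by 1.64 (adjusted p = 0.011, limma), Mybl2, which encodes B-Myb, by 1.12, and the centriole kinase Plk4 by 1.02. Foxm1 stood at 0.89 (adjusted p = 0.070) and was not called, and the DREAM subunit genes Lin9, Lin37, Lin52 and Lin54 stood at 0.49, 0.08, -0.03 and 0.06. Of 27 DNA replication genes, which are expressed earlier in the cycle, 7 rose, led by Tyms (1.43), Lig1 (1.20) and Rrm2 (1.18). All 27 were positive and their median was 0.79, against 1.15 for the 47 mitotic genes, a difference that was not tested. A CHR match anywhere in the window was found for 6 of 22 replication genes with a window, against 19.0% of the genes of the array.

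**Figure D4:**
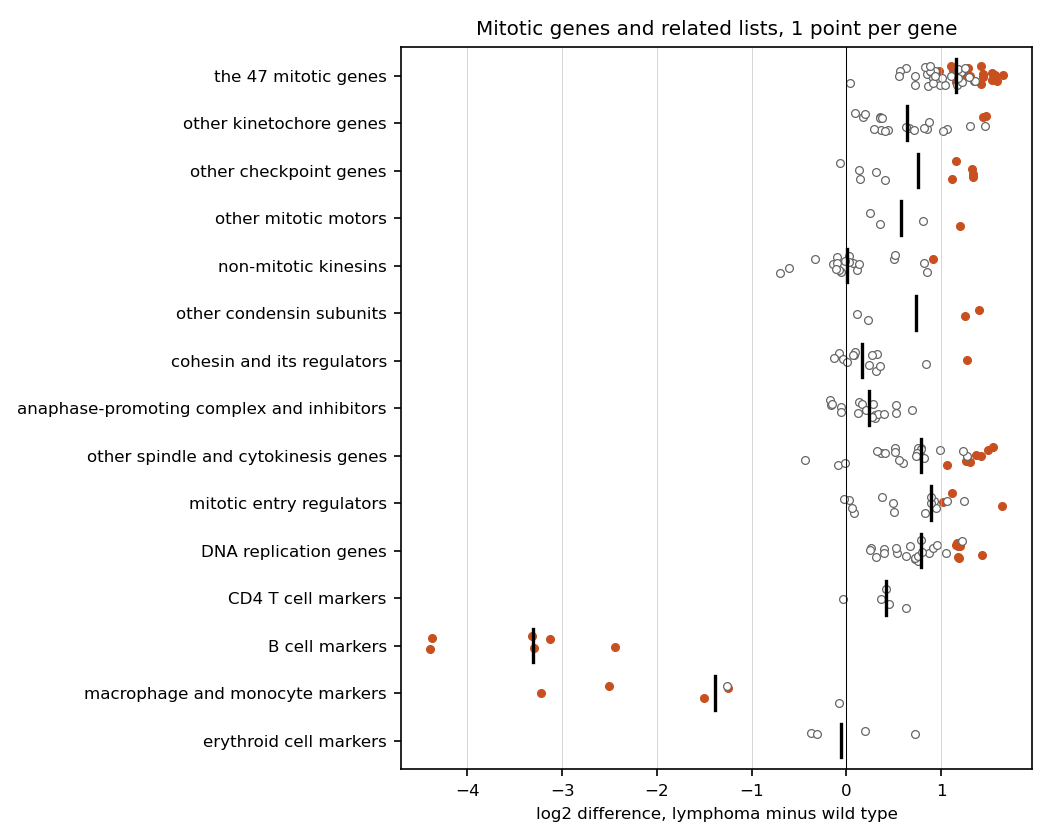
Log2 difference between lymphoma and wild type (x axis) of single genes in the mitotic set, in related lists set by function and in 4 cell type marker lists. Orange points have an adjusted p under 0.05 in limma, open points do not, vertical bars are list medians, and vertical scatter only separates points. The mitotic genes have a median of 1.15, the non-mitotic kinesins of 0.00 and the B cell markers of -3.31.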

How the data were processed

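RNA of 4 samples was measured on Affymetrix arrays. The authors deposited intensity values on a linear scale, 1 per probe set and array, made with Affymetrix Expression Console per the submitters' processing notes. Summarisation, background correction, normalization, software version and genome build are not stated there, and no detection calls were used. The 4 arrays had median intensities between 130 and 142 over 35556 probe sets. Their number limits the precision.

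From these values log2 was taken with no pseudocount or filter. Of the probe sets, 21789 had 1 gene symbol in GEO's platform annotation, and 1621 had several and 12146 none listed. A gene with several probe sets (999 genes, Top2a among the members) was represented by that with the highest mean. The group difference was fitted with limma (version 3.58.1, under R 4.3.3) without covariates. Variances were moderated with a trend, tests were two-sided, and p-values were adjusted by Benjamini-Hochberg across the 19938 genes. There were 2 residual and 4.24 prior degrees of freedom. An adjusted p under 0.05 was a call. The procedure was tested on simulated data.

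The members and lists were chosen with earlier results of these data known, so no test over a list is given. Values by array are given for the 2 largest and the smallest difference in each role group and for members whose groups overlapped. In other lists up to 3 called genes are named, and other names were chosen after their values were seen. The alternatives tried were a pseudocount of 32, quantile normalization, centring on array medians, omission of the dimmest genes by mean level, no variance trend, a robust trend, averaged probe sets, a replicate block and omission of each array. Centring on the Cd3 genes was chosen after seeing the data. Plots used matplotlib 3.10.9.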

Additional observations from a re-analysis of the deposited data

How the results depend on the processing

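With all 4 arrays, the number of the 47 genes that rose was 18 in the reported setting and stayed within 1.5 times of it in every alternative except the replicate block, where it was 30 and included the 18. The labels number both groups 1 and 2 without saying that a number marks a shared origin. Deviations of same-numbered arrays correlated at r = 0.23 over genes. With only 2 pairs, whether they share more than a number was not settled. When 1 array was left out the number lay between 0 and 41. No member was called lower in any setting. The median difference lay between 1.02 and 1.23 with all 4 arrays, apart from 0.67 relative to the Cd3 genes, and between 0.93 and 1.32 with 1 array left out. The sign of Smc4 was reversed under quantile normalization (-0.054) and relative to the Cd3 genes (-0.45), and it ranged from -0.14 to 0.21 with 1 array left out. The cause of these changes was not tested. The calls on Anln and Nuf2 were lost with the pseudocount, those on Anln and Cenpi without the variance trend, and those on Anln, Cenpi, Kif22 and Mki67 relative to the Cd3 genes. Without detection calls, how far a dim probe set such as that of Ska1 stood above background is unknown, and its fold change may be understated.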
